A study of Mus musculus with 7 samples.

Results

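The genes described here are the retinoid receptors and a set of retinoid-metabolising genes in Tim4+ resident macrophages of the mouse peritoneal cavity. They are 9 of the 57010 genes of the count table, taken by symbol: the retinoic acid receptors Rara, Rarb and Rarg, the retinoid X receptors Rxra and Rxrb, the aldehyde dehydrogenases Aldh1a1 and Aldh1a2, the retinoic acid carrier Crabp2 and the retinal reductase Dhrs3. RNA-seq libraries were made from poly-A RNA of macrophages that were sorted from the peritoneal fluid of C57BL/6 mice by CD11b, MHC class II and Tim4. The steady-state group held 3 libraries of control mice, and the day 12 group held 4 libraries of mice that had received m204 MTO 12 days earlier. MTO is written in the labels without its full name, and the series title speaks of peritoneal colorectal cancer. The labels give no genotype other than the strain, no age, and no statement on whether a library came from 1 mouse or from a pool. The protocol calls the replicates biological, and each p-value speaks of the spread among these libraries.

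Cells make retinoic acid from vitamin A in steps. Retinol dehydrogenases such as RDH10 oxidise retinol to retinal, DHRS3 reduces retinal back to retinol, and the aldehyde dehydrogenases of the ALDH1A family oxidise retinal irreversibly to retinoic acid, which CYP26 enzymes break down. In the nucleus retinoic acid binds a retinoic acid receptor (RAR) that sits on DNA as a heterodimer with a retinoid X receptor (RXR), and RXRs also pair with other nuclear receptors. In the peritoneal cavity retinoic acid is known to induce Gata6, the transcription factor that maintains resident macrophages, and mesothelial and stromal cells of the cavity are known as a source of it.

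The promoter of Rarb is shown first, beside those of Cyp26a1 and of both members that differed between the groups, because Rarb and Cyp26a1 are textbook targets of the RAR-RXR dimer. Each line gives the 250 bases before the annotated start (first start listed), 5′ to 3′ on the strand of the gene, from RefSeq on GRCm38.p6, whereas the counts use GRCm39. Capitals mark the match to a direct repeat of the receptor hexamer with 5 bases between the copies, called DR5. The search spelled only the last 5 bases of each hexamer, so the first base of the first copy is left in lower case.
Rarb (chr14:16575477-16575726, minus strand): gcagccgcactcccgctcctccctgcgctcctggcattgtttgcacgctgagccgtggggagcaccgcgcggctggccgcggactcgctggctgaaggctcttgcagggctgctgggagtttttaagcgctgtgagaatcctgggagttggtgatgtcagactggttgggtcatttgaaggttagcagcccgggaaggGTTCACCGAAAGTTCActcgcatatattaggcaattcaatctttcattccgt
Cyp26a1 (chr19:37697558-37697807, plus strand): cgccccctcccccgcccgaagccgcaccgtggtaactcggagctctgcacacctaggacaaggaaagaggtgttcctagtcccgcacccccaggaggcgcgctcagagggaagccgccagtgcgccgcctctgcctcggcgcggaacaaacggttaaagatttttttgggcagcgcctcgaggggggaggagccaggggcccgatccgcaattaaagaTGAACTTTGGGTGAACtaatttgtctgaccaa
Aldh1a2 (chr9:71215539-71215788, plus strand): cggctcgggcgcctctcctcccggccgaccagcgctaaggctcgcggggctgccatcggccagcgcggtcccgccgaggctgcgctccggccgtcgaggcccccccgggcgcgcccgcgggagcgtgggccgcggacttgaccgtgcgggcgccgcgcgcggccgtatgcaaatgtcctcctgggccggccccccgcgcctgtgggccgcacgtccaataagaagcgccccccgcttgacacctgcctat
Dhrs3 (chr4:144892577-144892826, plus strand): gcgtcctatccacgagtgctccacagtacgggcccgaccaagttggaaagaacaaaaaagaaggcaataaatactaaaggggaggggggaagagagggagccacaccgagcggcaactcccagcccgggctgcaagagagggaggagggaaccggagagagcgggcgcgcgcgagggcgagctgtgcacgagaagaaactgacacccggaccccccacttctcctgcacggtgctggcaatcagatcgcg
The DR5 search used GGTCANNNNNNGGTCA, GGTCANNNNNNGTTCA, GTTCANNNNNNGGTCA and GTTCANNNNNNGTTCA on both strands. Rarb held GTTCACCGAAAGTTCA at bases -52 to -37 relative to its start, and Cyp26a1 held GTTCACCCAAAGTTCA on the opposite strand at bases -32 to -17. A match was present in 81 of 32851 promoter windows (0.247%) that each ran from 250 bases before to 50 after a start. Of the 9 members, 8 had a window, and only Rarb held a match. These letters were not found in the windows of Aldh1a2 and Dhrs3. A match describes the letters of the window and is not evidence of binding.

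The comparison asked how RNA of these genes differed between macrophages at day 12 and in steady state. The synthesis enzyme Aldh1a2 rose 1.79-fold and the reductase Dhrs3 fell to 0.623 of its steady-state level, while none of the 5 receptor genes passed the test. Aldh1a1 and Crabp2 were close to absent in all libraries. In edgeR's quasi-likelihood test, 7 of the 9 members passed the filter on low counts, and 1 was called higher and 1 lower at an adjusted p of 0.05 (Benjamini-Hochberg over all 15981 genes tested). Over all genes tested 20.3% were called, 10.1% higher and 10.2% lower, so 2 of 7 members (28.6%) is a share near that background. The median log2 fold change was 0.07 over the 7 members and 0.0031 over all genes tested. Levels are CPM, read counts relative to library size with TMM scaling, as mean ± SD over n = 3 and n = 4 libraries. Counting totals ran from 32077050 to 38586694 per library, where 3 counts, the floor of detection used here, equal 0.0754 to 0.0958 CPM.

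**Figure D1:**
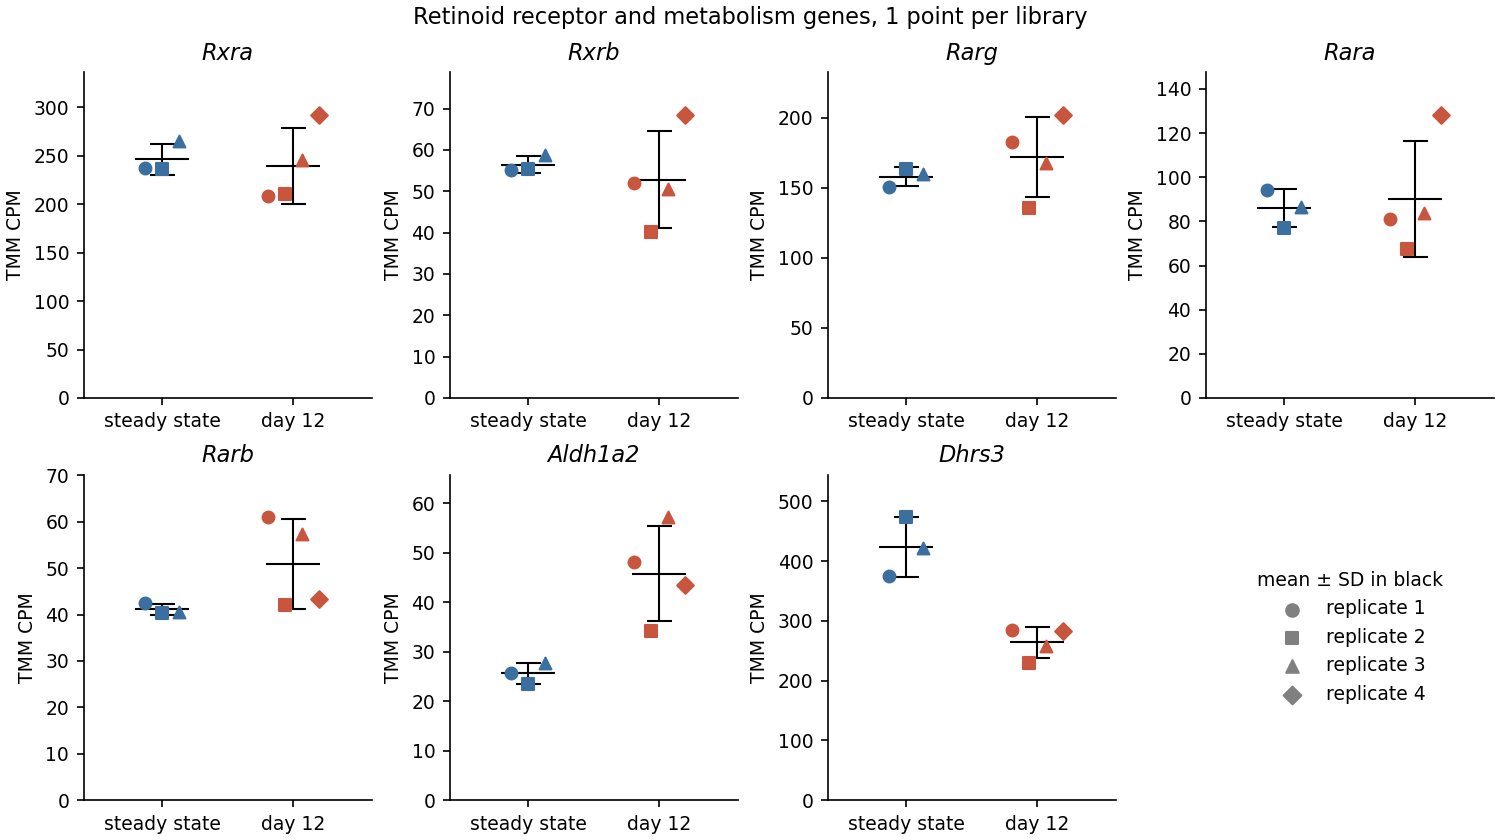
Level (TMM CPM, axis from 0) of the 7 members that passed the low-count filter, with 1 point per library, the shape giving the replicate number, and mean ± SD in black. Day 12 lies above steady state in all 4 libraries for Aldh1a2 (34.2 to 57.3 against 23.4 to 27.8 CPM) and below it in all 4 for Dhrs3 (229.7 to 285 against 375 to 474 CPM), and the groups overlap for each of the 5 receptors.

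Among the synthesis enzymes, Aldh1a2 encodes RALDH2, which makes retinoic acid from retinal (ENSMUSG00000013584, chromosome 9, 71123071 to 71203525). It stood at 25.8, 23.4 and 27.8 CPM in steady-state replicates 1, 2 and 3, and at 48.2, 34.2, 57.3 and 43.4 CPM in day 12 replicates 1, 2, 3 and 4. All 4 day 12 libraries were above all 3 of steady state, with replicate 3 the highest and replicate 2 the nearest to steady state. Its mean rose from 25.6 ± 2.17 (n = 3) to 45.8 ± 9.61 CPM (n = 4), with a log2 fold change of 0.84 (SE 0.17, 95% interval 0.46 to 1.22, edgeR adjusted p = 0.00802). Groups without overlap were seen in 35.0% of all genes tested. The call was kept in all 14 alternatives, with adjusted p from 9.52e-05 to 0.0477 and log2 fold changes from 0.71 to 0.98. Here and below the 14 are not all distinct, because the fit without day 12 replicate 4 is among them under more than 1 name.

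Aldh1a1, which encodes RALDH1 (ENSMUSG00000053279, chromosome 19, 20470079 to 20620829), had 2 reads in steady-state replicate 2 and 0 reads in the other 6 libraries. Both groups were thus under the floor of 3 counts over a group (0.0298 CPM for steady state, 0.0200 CPM for day 12), and no fold is given. The third enzyme of the family, Aldh1a3, had 15 reads in all libraries together, and the close rodent copy Aldh1a7 had 0. Of this family, Aldh1a2 was the only one that passed the filter.

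Peritoneal mesothelium and dendritic cells are further known sources of Aldh1a2 RNA, so their markers are given beside it. In bulk RNA, fewer cells of a type and less RNA per cell cannot be told apart. Of 14 mesothelial markers, Msln, Upk1b, Muc16 and Nkain4 had no read in any library and Wt1 had 2 reads. Their summed level was 0.128 to 0.532 CPM in steady-state and 0.605 to 1.01 CPM in day 12 libraries, higher at day 12 without overlap. The 1 marker that was tested, Krt18, was not called by edgeR (adjusted p = 0.0697, unadjusted p under 0.05). Of 12 dendritic cell markers 5 were tested, and edgeR called only Fscn1, which was lower, while 3 others were higher at an unadjusted p of 0.05. Their summed level ranged from 195.5 to 294 CPM in steady state and from 78.0 to 403 CPM at day 12. Siglech had no read, Xcr1 2 reads and Flt3 14 reads in all libraries. Cd209a held 172, 83.6, 373 and 59.3 CPM and Batf3 held 11.2, 4.12, 14.5 and 4.21 CPM in day 12 replicates 1, 2, 3 and 4, so both were highest in replicates 3 and 1, as Aldh1a2 was. The other 3 tested markers did not follow that order. In day 12 replicates 1, 2, 3 and 4, Ccr7 held 0.238, 0.729, 0.342 and 0.522 CPM, Fscn1 held 10.5, 13.2, 9.05 and 8.07 CPM, and Zbtb46 held 4.74, 4.17, 6.52 and 5.54 CPM. Of the genes that define resident macrophages, Itgam and Adgre1 were also highest in day 12 replicates 3 and 1, and the rest were not. Some markers of a further cell type list, given below, also had that order. The part of mesothelial or dendritic cells in the Aldh1a2 difference was not tested.

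Markers of further cell types moved beside Aldh1a2 and Dhrs3, and their part in those differences was not tested. Of 11 monocyte and small peritoneal macrophage markers 9 were tested, 1 was higher and 3 were lower, with sums of 300.7 to 401 CPM in steady-state and 345.5 to 376 CPM in day 12 libraries. Plac8 was the higher one, at 0.476 to 1.07 CPM in steady-state libraries and 25.7, 92.2, 4.10 and 143 CPM in day 12 replicates 1, 2, 3 and 4 (edgeR adjusted p = 0.0176). Among day 12 libraries Plac8 was lowest in replicate 3, where Aldh1a2 was highest. Irf4, Clec10a and Lyve1, tested but not called, were highest in day 12 replicates 3 and 1, as Aldh1a2 was. The other tested markers of that list did not follow that order. Ccr2, Mrc1 and Folr2 were lower, by log2 fold changes of -1.18, -1.29 and -1.26. Fibroblast markers summed to 75.7 to 90.7 CPM in steady-state and 192 to 293 CPM in day 12 libraries (2 of 3 tested were higher and 1 lower). Nearly all of that sum was Pi16 (84.1 ± 8.42 CPM, n = 3, and 255 ± 45.3 CPM, n = 4), while Lum, Dpt and Mfap5 had no read. Also called higher was Col1a2 (0.0106 ± 0.0184 and 0.295 ± 0.0510 CPM, edgeR adjusted p = 0.00500), and Acta2 was the lower one. Col1a1, Col3a1 and Dcn were not tested, with means of 0, 0.0106 and 0 CPM in steady state. At day 12 their means were 0.214, 0.419 and 0.148 CPM. The means of Pdgfra and Pdgfrb, also not tested, were lower at day 12. Of 10 B cell markers 9 were tested, 5 were higher and 1 lower, with sums of 80.0 to 88.2 CPM in steady-state and 38.4 to 82.6 CPM in day 12 libraries. Of 11 epithelial markers 2 were tested and their groups did not overlap: Cdh1 was higher (0.129 ± 0.0182 and 2.00 ± 0.658 CPM, log2 fold change 3.92, edgeR adjusted p = 0.000295) and Krt7 lower (10.9 ± 0.925 and 6.47 ± 1.92 CPM, adjusted p = 0.0465). Epcam had 14 reads in all libraries, and Krt20, Cdx2, Lgr5 and Tff3 had none. Of 10 neutrophil, eosinophil and mast cell markers 3 were tested, Siglecf was higher and Mmp8 lower, and the sum stayed at 1.78 to 3.57 CPM over all libraries.

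Dhrs3 encodes a membrane reductase that returns retinal to retinol and is itself induced by retinoic acid in many tissues (ENSMUSG00000066026, chromosome 4, 144619397 to 144654779). It stood at 375, 474 and 422 CPM in steady-state replicates 1, 2 and 3, and at 285, 229.7, 258 and 284 CPM in day 12 replicates 1, 2, 3 and 4. The highest day 12 library stayed under the lowest of steady state. The mean fell from 424 ± 49.6 to 264 ± 26.1 CPM (edgeR adjusted p = 0.00496). On the log2 scale the fold change was -0.68 (SE 0.12, 95% interval -0.96 to -0.40). This call too was kept in all 14 alternatives, with adjusted p from 1.12e-05 to 0.0323 and log2 fold changes from -0.74 to -0.59. The intervals of Aldh1a2 and Dhrs3 lie on opposite sides of 0.

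Crabp2, which carries retinoic acid to the nucleus (ENSMUSG00000004885, chromosome 3, 87855973 to 87860683), had 3 reads in steady state (1 in replicate 2 and 2 in replicate 3) and 1 read at day 12 (in replicate 4). Both groups were at or under the floor of 3 counts over a group, so no fold is given, and any difference was not detectable at this depth. Its relative Crabp1 had no read.

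**Figure D2:**
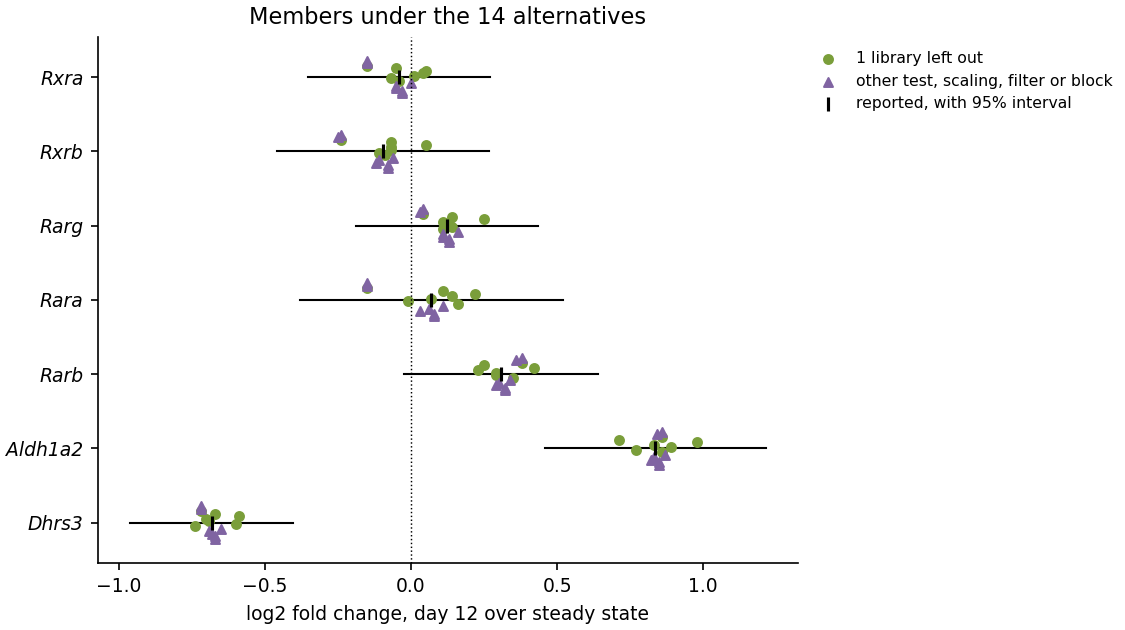
Log2 fold change of day 12 over steady state for the 7 tested members, with the reported value and its 95% interval in black, fits with 1 library left out as circles, and other tests, scalings, filters or a replicate block as triangles. Aldh1a2 stays between 0.71 and 0.98 and Dhrs3 between -0.74 and -0.59, while Rara, Rxra and Rxrb have values on both sides of 0.

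The retinoid X receptors came next. Rxra (ENSMUSG00000015846, chromosome 2, 27566452 to 27652969) encodes the RXR with the highest level per length in these libraries. It stood at 237, 237 and 265 CPM in steady-state replicates 1, 2 and 3, and at 208, 211, 246 and 293 CPM in day 12 replicates 1, 2, 3 and 4. The groups overlapped, with day 12 replicates 1 and 2 below and replicate 4 above the steady-state range. Its means were 246 ± 16.4 and 239 ± 39.4 CPM, and the log2 fold change was -0.04 (95% interval -0.35 to 0.27, edgeR adjusted p = 0.865). Rxrb (ENSMUSG00000039656, chromosome 17, 34250786 to 34257373), the second RXR, was at 55.2, 55.3 and 58.7 CPM in steady state and at 51.9, 40.1, 50.6 and 68.5 CPM at day 12. Here 3 day 12 libraries lay below the steady-state range and replicate 4 lay above it. Its log2 fold change was -0.10 (95% interval -0.46 to 0.27, adjusted p = 0.723). Rxrg, which is not among the 9 genes, had means of 3.45 ± 1.02 and 4.39 ± 0.875 CPM in the same order of groups (adjusted p = 0.374).

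Of the retinoic acid receptors, Rarg (ENSMUSG00000001288, chromosome 15, 102143373 to 102165952) stood at 150.45, 164 and 160.0 CPM in steady-state replicates 1, 2 and 3, and at 183, 135, 168 and 202 CPM in day 12 replicates 1, 2, 3 and 4. Replicate 2 of day 12 was below the steady-state range and the other 3 above it. The log2 fold change was 0.12 (95% interval -0.19 to 0.43, edgeR adjusted p = 0.582). Rara (ENSMUSG00000037992, chromosome 11, 98818644 to 98865768), the most widely expressed RAR across tissues, was at 94.0, 76.9 and 86.6 CPM in steady state and at 81.1, 67.4, 83.7 and 128 CPM at day 12. Replicate 4 of day 12 was above the steady-state range, replicate 2 below it and the other 2 within it. Its log2 fold change was 0.07 (95% interval -0.38 to 0.52, adjusted p = 0.842), and its sign changed without day 12 replicate 4 (-0.15, adjusted p = 0.34) and without steady-state replicate 2 (-0.01, adjusted p = 0.992), with a range of 0.155 to 0.992 over the 14 alternatives.

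Rarb, the RAR whose own promoter carries the DR5 printed above (ENSMUSG00000017491, chromosome 14, 5650540 to 6038924), had the largest of the 5 receptor log2 fold changes. It was at 42.5, 40.4 and 40.5 CPM in steady-state replicates 1, 2 and 3, and at 61.0, 42.1, 57.4 and 43.3 CPM in day 12 replicates 1, 2, 3 and 4. Replicates 1 and 3 of day 12 were well above steady state, whereas replicates 2 and 4 lay at or just above its upper end. The steady-state mean was 41.1 ± 1.19 CPM and that of day 12 was 51.0 ± 9.65 CPM (log2 fold change 0.31, 95% interval -0.02 to 0.64, edgeR adjusted p = 0.175). It did not pass in any of the 14 alternatives (adjusted p from 0.0558 to 0.359). The last 4624 bases of Rarb (6034301 to 6038924) overlap Top2b on the other strand, which had 36549 reads in all libraries, and no source used here states whether counting used strand. Reads of the 2 genes may therefore not be told apart there, and the level of Rarb is uncertain.

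Across the 5 receptors the 95% intervals all included 0, with ends from -0.46 (Rxrb) to 0.64 (Rarb) on the log2 scale, and each gene's own interval gives the differences its libraries allow. Day 12 replicate 4 was the highest of all 7 libraries for Rxra, Rxrb, Rarg and Rara, and day 12 replicate 2 was the lowest for Rxrb, Rarg and Rara. The day 12 SD exceeded that of steady state for all 5 receptors.

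Levels of different genes were compared per kilobase of exon. In steady state Dhrs3 was first at 145 ± 17.0 CPM per kilobase, followed by Rxra (45.1 ± 3.00), Rarg (37.1 ± 1.59), Rara (19.7 ± 1.97), Rxrb (14.2 ± 0.506), Aldh1a2 (11.3 ± 0.959) and Rarb (7.81 ± 0.225 CPM per kilobase). No neighbours in that order overlapped between libraries in steady state. At day 12 the libraries of Aldh1a2 (20.2 ± 4.24 CPM per kilobase) overlapped those of Rara (15.4 to 29.4) and of Rxrb (10.1 to 17.2), and those of Rxra (43.8 ± 7.21) overlapped those of Rarg (31.7 to 47.4 CPM per kilobase). Rxrb and Rarb (7.99 to 11.6 CPM per kilobase) overlapped as well. Lengths were the union of all annotated exons, so a gene that uses short transcripts has its level understated.

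**Figure D3:**
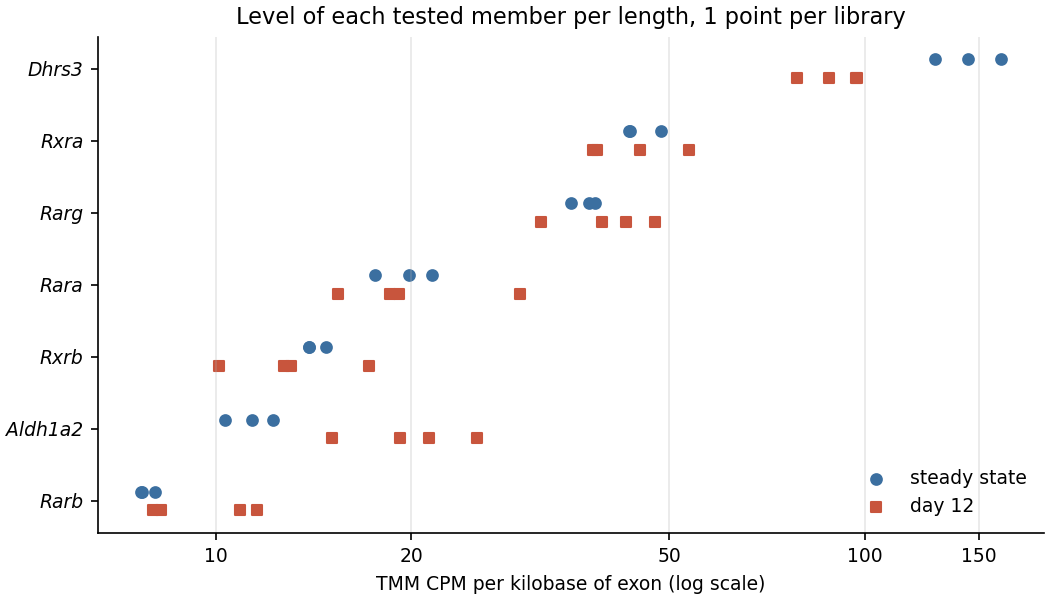
Level of each tested member per kilobase of exon (TMM CPM per kilobase, log axis), with 1 point per library, circles for steady state and squares for day 12. Dhrs3 leads in both groups, and Aldh1a2 moves from 10.3 to 12.3 in steady state to 15.1 to 25.3 CPM per kilobase at day 12.

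A wider list of 43 genes of retinoid transport, metabolism and storage gave 19 tested genes. Of these, 3 were called higher (15.8%), 2 lower (10.5%) and 14 not, with a median log2 fold change of 0.11. In both directions together 26.3% were called, against 20.3% of all genes tested (10.1% higher and 10.2% lower). Without steady-state replicate 2 only 1 was called higher, and without day 12 replicate 3 there were 5. Of all 43, 14 had no read in any library, among them Stra6, the cell-surface receptor for retinol-binding protein, and Lrat, which stores retinol as esters. Dhrs9, which can oxidise retinol to retinal, was at 0.386, 1.20 and 0.511 CPM in steady state and at 7.66, 7.01, 10.4 and 4.47 CPM at day 12, without overlap (log2 fold change 3.38, SE 0.44, edgeR adjusted p = 0.000941). Rdh13, a mitochondrial member of the retinol dehydrogenases, rose from 7.18 ± 0.894 to 12.2 ± 1.78 CPM (adjusted p = 0.0102, and 0.0579 without steady-state replicate 2, range 0.000212 to 0.0579 over 14 alternatives).

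The falling genes of that list were Fabp5 and Rdh11. Fabp5, which can carry retinoic acid to PPAR delta, stood at 72.4, 75.5 and 62.4 CPM in steady state and at 35.1, 42.3, 38.9 and 21.2 CPM at day 12, again without overlap (log2 fold change -1.03, SE 0.21, edgeR adjusted p = 0.00795). Rdh11, which reduces retinal, fell from 8.95 ± 1.68 to 5.95 ± 0.651 CPM (adjusted p = 0.0401) and was no longer called when steady-state replicate 1, 2 or 3 or day 12 replicate 1, 2 or 3 was left out (range 0.0137 to 0.221 over 14 alternatives). Rdh10, named after its values were seen as the enzyme that works against DHRS3, had means of 11.5 ± 0.889 and 12.5 ± 1.23 CPM and did not pass (95% interval -0.18 to 0.40, adjusted p = 0.578). Per kilobase those means were 2.77 and 3.00 CPM, against 145 and 90.2 for Dhrs3.

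The catabolic genes Cyp26a1 and Cyp26b1, likewise named after their values were seen, were variable. Cyp26a1, whose promoter carries the other DR5 printed above, held 7.92, 11.5 and 4.34 CPM in steady state and 15.025, 6.71, 3.29 and 14.5 CPM at day 12 (log2 fold change 0.32, 95% interval -0.96 to 1.59, edgeR adjusted p = 0.734). Cyp26b1 held 6.97, 5.602 and 7.35 CPM in steady state and 11.05, 9.63, 4.60 and 14.4 CPM at day 12 (log2 fold change 0.58, adjusted p = 0.245). Both were lowest in day 12 replicate 3, the library with the highest Aldh1a2. In day 12 replicate 1, the next highest for Aldh1a2, Cyp26a1 was at its highest and Cyp26b1 at 11.05 CPM. Cyp26b1 was called higher without day 12 replicate 3 (log2 fold change 0.82, edgeR adjusted p = 0.0231, range 0.0231 to 0.573 over 14 alternatives).

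Of 22 genes listed as induced by retinoic acid (members left out), 14 were tested, and edgeR called 6 higher (42.9%, against 10.1% of all genes tested) and 0 lower, with 1 lower at an unadjusted p of 0.05, Tgfb2 (adjusted p = 0.0568), and 1 lower in DESeq2. The median log2 fold change was 0.60. Only 3 were called higher without steady-state replicate 1, 2 or 3. The share was not tested against that of other genes. Tgm2, a protein cross-linking enzyme that interleukin 4 induces in macrophages as well, stood at 22.3, 18.1 and 18.8 CPM in steady state and at 266, 259, 251 and 858 CPM at day 12 (log2 fold change 4.37, SE 0.57, edgeR adjusted p = 0.00234), and without day 12 replicate 4 its log2 fold change was 3.72. Rai14, an actin-associated protein, rose from 51.7 ± 7.41 to 122 ± 23.1 CPM (adjusted p = 0.00130), and Btg2, an antiproliferative gene, from 159.9 ± 2.20 to 269 ± 44.8 CPM (adjusted p = 0.00575). Gata6, the lineage factor, was at 179.8, 171 and 173 CPM in steady state and at 247, 209.5, 253 and 272 CPM at day 12 (log2 fold change 0.49, adjusted p = 0.0148), and lost the call without any 1 of the steady-state libraries (range 0.000417 to 0.0755 over 14 alternatives). Of the members known as targets of retinoic acid, Rarb did not pass and Dhrs3 fell.

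**Figure D4:**
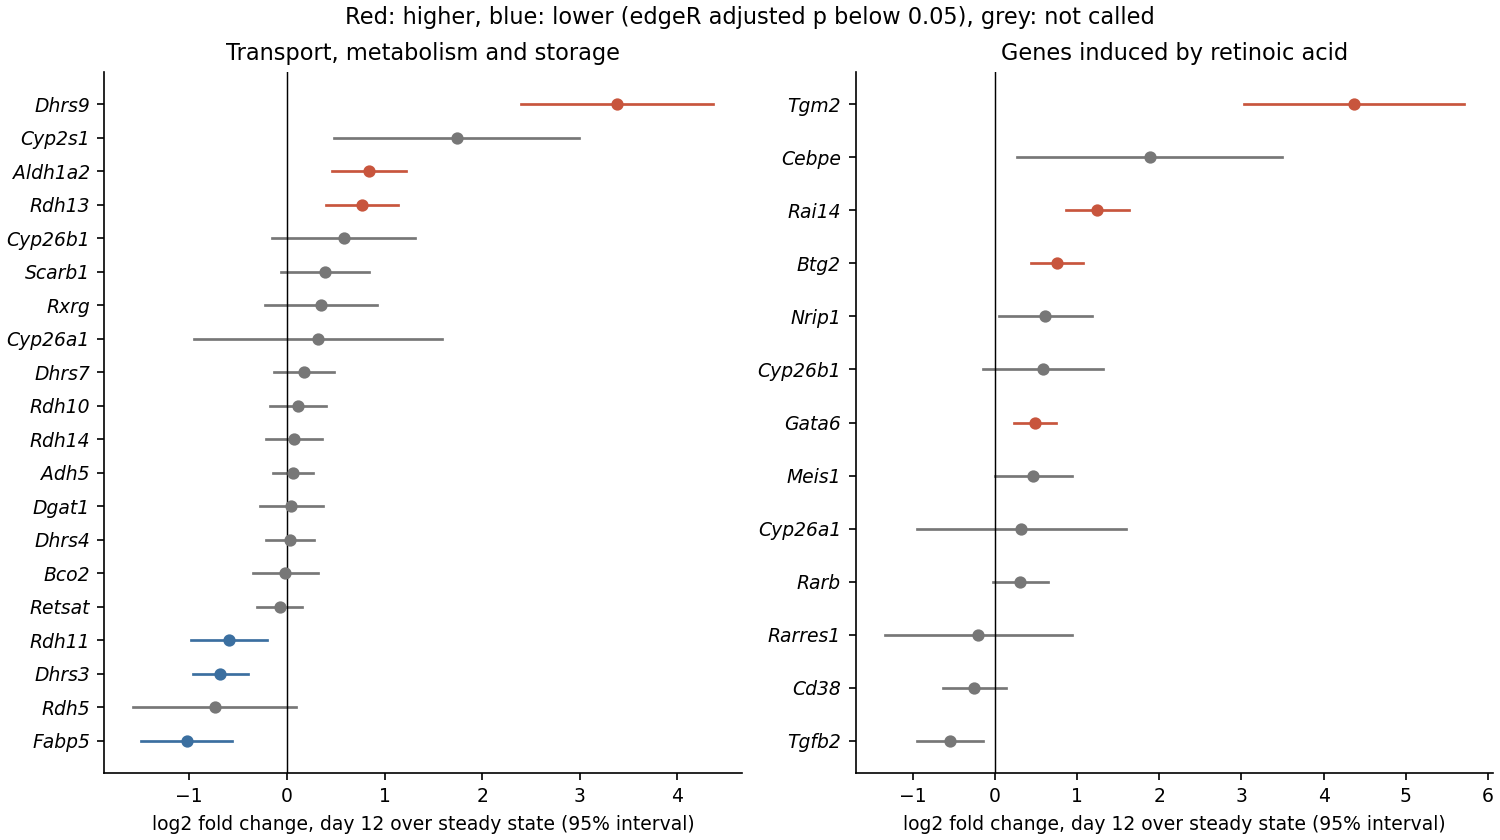
Log2 fold change of day 12 over steady state with its 95% interval for tested genes of retinoid transport, metabolism and storage, with Aldh1a2 and Dhrs3 added (left), and for tested genes induced by retinoic acid, with Rarb added (right). Not every tested gene is drawn. On the left Dhrs9, Rdh13 and Aldh1a2 are higher (red) and Fabp5, Rdh11 and Dhrs3 lower (blue), and on the right Tgm2, Rai14, Btg2 and Gata6 are higher and no drawn gene is called lower, grey marking genes not called.

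RXR shares its dimers with other nuclear receptors. Of 13 listed partners 11 were tested, 1 was called higher (9.09%) and 2 lower (18.2%), with a median log2 fold change of 0.08. Together 27.3% were called, against 20.3% of all genes tested (10.1% higher and 10.2% lower). Nr4a1, an orphan receptor, rose from 11.3 ± 1.90 to 18.4 ± 2.23 CPM (edgeR adjusted p = 0.0117, and 0.0595 without steady-state replicate 3, range 0.000331 to 0.0595 over 14 alternatives). Its relative Nr4a2 fell from 3.23 ± 0.257 to 1.23 ± 0.173 CPM (adjusted p = 0.00201), and the thyroid hormone receptor gene Thra fell from 29.4 ± 1.62 to 15.8 ± 3.01 CPM (adjusted p = 0.00371, log2 fold change -0.89). Nr1h2 and Ppard, which were picked from their values, did not pass (adjusted p = 0.343 and 0.378), and both were highest in day 12 replicate 4, at 142 and 73.6 CPM.

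Of 21 coactivators and corepressors, 20 were tested. EdgeR called 0 higher (1 at an unadjusted p of 0.05, and 0 with DESeq2 or limma-voom) and 3 lower (15%, against 10.2% of all genes tested, with 7 lower at an unadjusted p of 0.05), and the median log2 fold change was -0.16. In both directions together 15% were called, against 20.3% of all genes tested. The 3 were Ncoa1, Ncoa2 and Ncoa3, which form the steroid receptor coactivator family and bind RAR and RXR when ligand is present. Ncoa1 fell from 112 ± 5.12 to 71.3 ± 3.72 CPM (adjusted p = 0.00150, log2 fold change -0.65 with SE 0.09). Ncoa2 fell from 94.5 ± 1.86 to 70.1 ± 4.99 CPM (adjusted p = 0.0120) and lost its call without any 1 of the steady-state libraries (range 0.000704 to 0.0614 over 14 alternatives). Ncoa3 fell from 273 ± 10.2 to 214 ± 20.9 CPM (adjusted p = 0.0467) and was called in only 5 of 14 alternatives (adjusted p from 0.00308 to 0.168). Those 5 count the fit without day 12 replicate 4 more than once. Ncoa3 lost the call without any 1 of the steady-state libraries and without day 12 replicate 1, 2 or 3. The corepressor gene Ncor1 did not pass and was picked once its values were known (adjusted p = 0.146).

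The labelled cell type was checked against its markers. Of 10 genes that define resident macrophages all were tested, 5 were higher and 2 lower, and Prg4, a secreted proteoglycan, averaged 11823 ± 637 and 10974 ± 567 CPM. The sort gene Timd4 fell by 0.96 on the log2 scale (edgeR adjusted p = 0.00484), and Trem1, named in the series title, rose from 0.667 ± 0.430 to 18.6 ± 13.3 CPM (adjusted p = 0.00344). Its log2 fold change was 4.77, and 4.15 without day 12 replicate 4, which held 38.2 CPM. Of 10953 protein-coding genes with a mean of at least 1 CPM, those whose centred log2 CPM lay nearest to that of Aldh1a2 over the 7 libraries were Col20a1 and Mob3c (root mean square difference 0.106 and 0.107 on the log2 scale). Those nearest to Dhrs3 were Adipor1, an adiponectin receptor, and Cat, which encodes catalase (0.103 and 0.105). Mob3c rose from 24.6 ± 2.84 to 40.3 ± 5.44 CPM, and Cat fell from 163 ± 8.04 to 111 ± 3.84 CPM.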

How the data were processed

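RNA of 3 steady-state and 4 day 12 libraries was compared. The authors deposited raw read counts per gene, 1 column per library. Per the submitters' processing notes, the tools were STAR 2.7.11a, featureCounts of Subread 2.0.6, SAMtools 1.10, FastQC and DESeq2 1.40.2, and the build was GRCm39. The sources used here do not name the annotation release, the strand setting or how multi-mapped reads were counted. Per the labels' protocols, the libraries were directional and RNA came from 3 biological replicates per condition, whereas the titles give 4 for day 12. Groups came from the sample titles.

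Counts were tested with edgeR 4.0.16 (quasi-likelihood, robust, TMM, group as the term, R 4.3.3) after filterByExpr (minimum count 10, minimum total 15), with Benjamini-Hochberg adjustment at 0.05 over 15981 genes. Fits across all 7 libraries share 1 estimate of spread per gene, SEs were derived from each log2 fold change and its F value, and the procedure was tested on simulated data. Exon lengths came from GENCODE M21 by identifier, and promoters from RefSeq on GRCm38.p6. Alternatives were DESeq2 1.42.0, its size factors within edgeR, limma-voom (limma 3.58.1), no filter, a filter of 1 CPM in 3 libraries, each library left out, and a replicate block. The libraries of that block were also counted as an alternative without it, which is the same fit as that without day 12 replicate 4. Replicates of a group differed by more than sampling noise (chi-square per degree of freedom 16.4 to 221). The detection floor covers counting error only, because PCR copies without molecular identifiers are not separate molecules.

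The retinoid genes and gene lists were chosen with earlier results of these data known. Named genes were the 9 retinoid genes, Gata6, Timd4, Trem1 and Rxrg, and up to 4 called genes per direction with the lowest p of each list (the 2 with the highest mean CPM where none was called). Genes of another cell type were named where they moved beside a retinoid gene. The 2 genes nearest in pattern to each called member were added, and others were named after their values were seen. Some genes counted in the lists are not reported here by name or value.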

Additional observations from a re-analysis of the deposited data

Results flagged for a closer look

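In the day 12 group, a sample far from the other 3 (Dixon's test) was found for 4 of the 46 genes examined, and chance flags about 1 in 20 groups. None was among the 9 retinoid genes. Tgm2 was at 857.8 CPM in day 12 replicate 4 against 251 to 266 CPM in the others. Scarb1, a receptor for lipoproteins and carotenoids picked from its values, held 133 CPM in day 12 replicate 4 against 75.5 to 79.2 CPM. Nr4a1 was at 21.74 CPM in day 12 replicate 4 against 16.9 to 17.6 CPM. Nr4a2 was at 1.484 CPM in day 12 replicate 1 against 1.105 to 1.161 CPM.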

How the results depend on the processing

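Aldh1a2 and Dhrs3 kept their call and direction in all 14 alternatives, and none of the 5 receptors was called in any of them. The 14 count the fit without day 12 replicate 4 more than once. Of 24 genes called among 46 examined singly, 15 kept the call in every alternative run, 9 lost it in at least 1, and 6 uncalled genes gained it in at least 1. Of the receptors, signs changed for Rara, Rxra and Rxrb in at least 1 alternative. Rara was at -0.15 in the replicate block and at -0.15 in the same 6 libraries without it, which is the fit without day 12 replicate 4. With 1 library left out the log2 fold changes ranged from -0.15 to 0.22 for Rara, from -0.15 to 0.05 for Rxra and from -0.24 to 0.05 for Rxrb. In the replicate block Cyp26a1 was at -0.08.

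With 1 library left out, the genes called over the whole table ranged from 857 (without steady-state replicate 3) to 2188 higher (without day 12 replicate 4) and from 904 to 2411 lower. In the same fits the transport, metabolism and storage list ranged from 1 to 5 higher and 1 to 2 lower, the RXR partners from 0 to 1 higher, the coactivators and corepressors from 0 to 1 higher and 1 to 4 lower, and the retinoic acid induced genes from 3 to 7 higher and 0 to 1 lower. The transport, metabolism and storage list had 1 lower with no filter on low counts and 1 in the replicate block. The coactivators and corepressors had 6 lower in the block. The retinoic acid induced list had 1 lower with DESeq2, 1 with no filter, 1 in the block and 1 in the same 6 libraries without it. Fits with fewer libraries have fewer degrees of freedom; otherwise the cause was not tested.

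Same-numbered libraries of the groups share a number in the titles, which do not say whether they were paired. The correlations of their deviations from the group means were -0.141, 0.00775 and 0.203 for replicates 1, 2 and 3. Libraries with unlike numbers ranged from -0.201 to 0.191. So few libraries cannot decide on pairing. The block was therefore an alternative only, and it left out day 12 replicate 4.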
